A study of Drosophila melanogaster with 2 samples.

Results

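Cytosolic ribosomal protein genes encode the proteins of the ribosome that translates nuclear messages, and their promoters were examined here for binding of CG31388, a *Drosophila melanogaster* zinc finger protein. Members were all protein-coding genes whose symbol begins with RpL or RpS, plus *sta*, which encodes a small subunit protein. This gave 93 of the 13945 protein-coding genes on the 6 chromosome arms used, 54 for the large subunit and 39 for the small. The symbol rule also took in 5 genes with the ending "-like", namely *RpLP0-like*, *RpL24-like*, *RpL22-like*, *RpL7-like* and *RpS28-like*. In budding yeast, counterparts of the first pair act in ribosome assembly.

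The series is a chromatin immunoprecipitation and sequencing (ChIP-seq) experiment on whole embryos of mixed sex, 0 to 16 hours old. They came from 1 transgenic line that stably expresses CG31388 with green fluorescent protein (GFP) at its C-terminal end, and an antibody against GFP pulled down chromatin sonicated to 200 to 800 bp. The 2 libraries, biological replicates 2 and 4, form 1 group and cite different protocol documents. There is no untreated or untagged group, the control library was not analysed here, and a mixture of all embryonic cell types and stages was averaged in each library.

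Ribosomal protein genes are transcribed strongly in nearly every cell, and their products are needed in equal amounts. In flies many of them start transcription at a pyrimidine-rich initiator, the TCT motif, in place of the usual initiator. DREF, which binds the DNA replication-related element (DRE), and M1BP, which binds core promoter motif 1, are known regulators of fly ribosomal protein promoters.

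Sequences of 6 peaks are shown first because they carry the contrast described later, between summits rich in G and C next to the transcription start site (TSS) and summits rich in A and T farther upstream. Each is the 61 bp centred on the summit, the single base that the pooled list gives as the source point of a region, read 5′ to 3′ on the strand of the ribosomal protein gene in RefSeq's dm6 assembly. All 6 lie between annotated genes. *RpS27* has the strongest peak of all members (3R:25247538-25247598, minus strand, summit 54 bp upstream). *RpL34b* (3R:9401254-9401314, minus strand, 58 bp upstream) and *RpL22* (X:765142-765202, minus strand, 42 bp upstream) are rich in G and C, with 57.4% and 60.7% in these windows. *RpL28* (3L:3223002-3223062, minus strand, 72 bp upstream) holds a whole DRE. *RpL32* (3R:30046357-30046417, minus strand, 226 bp upstream) and *RpL18* (3L:7241466-7241526, minus strand, 145 bp upstream) are rich in A and T, with 34.4% and 26.2% G and C. Capitals mark the DRE in *RpL28*, the reverse complement of the BEAF-32 word CGATA in *RpL22*, and a TATA box word on the opposite strand in *RpL18*.
RpS27: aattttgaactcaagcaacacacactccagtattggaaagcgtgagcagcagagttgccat
RpL34b: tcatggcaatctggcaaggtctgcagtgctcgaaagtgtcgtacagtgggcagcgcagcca
RpL22: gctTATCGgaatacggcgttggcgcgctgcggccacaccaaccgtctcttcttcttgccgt
RpL28: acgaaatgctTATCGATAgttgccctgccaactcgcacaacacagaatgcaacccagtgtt
RpL32: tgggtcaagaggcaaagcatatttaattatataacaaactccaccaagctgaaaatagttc
RpL18: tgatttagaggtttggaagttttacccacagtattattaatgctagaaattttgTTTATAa

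The initiators are shown for 5 members with a peak, as the 20 bases before the annotated TSS and the 10 bases from it, on the gene's own strand in the same assembly. Capitals mark the TCT initiator word, TCTTT or CCTTT. The windows are at 3L:1668645-1668674 on the minus strand for *RpL23A*, 3L:3222951-3222980 on the minus strand for *RpL28*, 3L:22076072-22076101 on the plus strand for *RpLP0*, 3R:30046152-30046181 on the minus strand for *RpL32* and 3R:11216278-11216307 on the minus strand for *RpS25*. Each overlaps an exon of its gene by its last bases.
RpL23A: ttgacaactgcccctcagttttCCTTTtca
RpL28: cgcgctatgtcgggctgccatattTCTTTc
RpLP0: ctgggtgccgccgccaacttcacTCTTTcc
RpL32: ttttttcacaccaccagcttttTCTTTtcg
RpS25: actctggccgtttccgccctccaTCTTTct

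CG31388-GFP had a reproducible peak at the promoter of 30 of the 93 ribosomal protein genes, which is 32.3% (95% exact binomial interval 22.9 to 42.8). Among all protein-coding genes the share was 10.1%, or 1411 of 13945. The members' count depends on replicate 4: from the strongest regions of replicate 2 alone, in equal number, it was 19, and in the stronger 50% of the reproducible peaks it was 13. A promoter peak is one whose summit lies within 500 bp of any TSS of the gene. A reproducible peak is one in the set that the authors thresholded on the irreproducible discovery rate (IDR). The name does not mean a strong region in each library, as *RpL28* is in the set without a replicate 2 region at its summit. A candidate, one of the 28750 regions of the pooled list from which those peaks came, was present at 78 ribosomal protein genes (83.9%), against 46.5% of all protein-coding genes. A candidate outside the reproducible set may be background. The other 15 members had none. The reproducible peaks are exactly the strongest regions of the pooled list, so the split among members follows the signal value and not a separate property. Genes are not replicates and neighbours can share a peak, so shares are given as a description with no test, and the intervals cover counting error only.

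Large subunit genes held 21 of these peaks among 54 genes (38.9%, interval 25.9 to 53.1), and small subunit genes held 9 among 39 (23.1%, interval 11.1 to 39.3). The intervals overlap, and the difference was not tested. From the strongest regions of replicate 2 alone, as many as there are reproducible peaks, the counts were 11 of 54 large subunit genes and 8 of 39 small subunit genes, so the contrast rests on replicate 4. All 30 genes have a peak of their own, with no peak counted for 2 members. None of the 5 genes with the ending "-like" had a peak, so the 30 stand unchanged over the 88 other members.

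**Figure D1:**
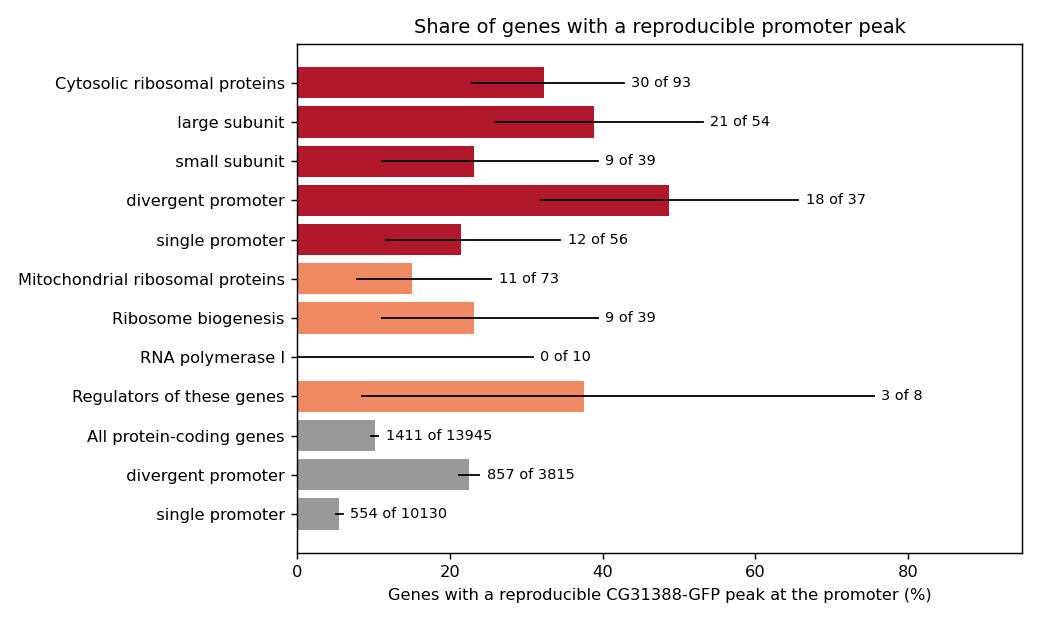
Bars give the percentage of genes with a reproducible CG31388-GFP peak at the promoter, lines the 95% exact binomial interval, and the text beside them the number of genes. Cytosolic ribosomal protein genes and their classes (dark red) are at the top, compared gene lists (orange) in the middle and all protein-coding genes (grey) at the bottom. The share was 32.3% of ribosomal protein genes, against 10.1% of all protein-coding genes, and in each promoter class the members' bar is longer than that of all genes of the class.

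Divergent promoters, in which another protein-coding gene starts head to head within 500 bp upstream, held 18 of the 30 peaks. This split is close to that of all protein-coding genes with a peak, of which 857 of 1411 were divergent. Of the 37 divergent members 48.6% had a peak (interval 31.9 to 65.6), against 22.5% of all divergent protein-coding genes. Of the 56 single members, those without such a partner, 12 had a peak (21.4%, interval 11.6 to 34.4), against 5.47% of all single protein-coding genes. A gene with many TSSs has more windows in which a peak can fall, and among single genes with 1 TSS the counts were 7 of 30 members (23.3%), against 3.53% of all such genes. The members' share was thus above that of all genes in both promoter classes and among single genes with 1 TSS. By subunit, the peaks fell at 12 of 22 divergent and 9 of 32 single large subunit genes, and at 6 of 15 divergent and 3 of 24 single small subunit genes.

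The peak of a divergent member cannot be assigned to either gene by position alone. All 18 of these peaks also lay within 500 bp of a TSS of the partner, 14 summits lay between the start sites of the 2 genes, and the summit was nearer the ribosomal protein TSS at 11 and nearer the partner's at 7. The median distance from summit to partner TSS was 166.5 bp in these 18, and their median position from the member's own TSS was −74 bp (negative upstream). Over all 30 members with a peak, single ones included, the median distance to the own TSS was 57.5 bp. Several partners act in gene expression themselves. *RpL14*, a large subunit gene, lies 127 bp from *Nelf-E*, a subunit of the factor that pauses RNA polymerase II, and the summit was 121 bp from the *RpL14* TSS and 6 bp from that of *Nelf-E*. *RpL13* lies 84 bp from *Dref*, the gene of the DRE-binding factor, and the summit was 89 bp from the *RpL13* TSS and 5 bp from that of *Dref*. *RpL28* lies 381 bp from *eIF1*, a factor of start codon selection, and here the summit was 72 bp from *RpL28* and 309 bp from *eIF1*. *RpS27* lies 144 bp from *Nup37*, a nuclear pore gene, with the summit 54 bp from *RpS27* and 90 bp from *Nup37*.

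The peaks were of moderate strength. Signal is the authors' enrichment value per region, on a scale the sources do not state, and is used here to describe and rank regions. Its median was 70.3 in the 30 member peaks (54.6 to 183), against 81.5 in the 967 other promoter peaks of protein-coding genes. Only the strongest region of each member was set apart, so the second peaks of 2 members are among the 967. The strongest member peak, at *RpS27*, ranked 130 in the pooled list, so no member stood among the 100 strongest regions, and 13 stood in the stronger 50% of the reproducible peaks. The weakest reproducible peak of the whole list had a signal of 53.8, just under the weakest member peaks at *sta* (54.6, rank 1832) and *RpL13* (54.6, rank 1828).

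Strong small subunit peaks stood at 4 divergent promoters. *RpS27*, whose protein carries a zinc finger, had a signal of 44.3 in replicate 2 (rank 398) and 137 in replicate 4 (rank 97), with 183 in the pooled list. *RpS20*, a protein of the small subunit head, had 37.6 in replicate 2 (rank 557) and 76.9 in replicate 4 (rank 369). *RpS21* had 30.1 in replicate 2 (rank 887) and 71.5 in replicate 4 (rank 446). *RpS25*, a protein that many viral internal ribosome entry sites need, had 34.2 in replicate 2 (rank 673) and 55.7 in replicate 4 (rank 784). All 4 were in the top set of each library, the term used here for as many of its strongest regions as there are reproducible peaks. Their partners are *Nup37*, *CG17271*, *CG3104* and *CG4820*.

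Weaker small subunit peaks stood at *RpS16*, *RpS10b*, *RpS28b*, *RpS4* and *sta*. *RpS16*, divergent with *CG4294*, had a signal of 18.8 in replicate 2 (rank 2188) and 50.4 in replicate 4 (rank 959). *RpS10b* had 17.9 (rank 2400) in replicate 2 and 44.4 (rank 1226) in replicate 4. *RpS4* had 16.1 (rank 2976) in replicate 2 and 42.6 (rank 1316) in replicate 4. All 5 regions were in the top set of replicate 4, and none of the matched regions was in that of replicate 2. *RpS28b* had the lowest rank of any member peak in replicate 2, with a signal of 9.74 (rank 10744), beside 46.6 (rank 1120) in replicate 4. *sta*, whose protein is the fly counterpart of the laminin receptor precursor, had 16.2 (rank 2951) in replicate 2 and 40.3 (rank 1487) in replicate 4, and is divergent with *inc*, an adaptor for the Cul3 ubiquitin ligase.

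Among large subunit genes the strongest peaks were at *RpL34b*, *RpL23A* and *RpL7*. *RpL34b*, divergent with *CG8132*, had a signal of 48.3 in replicate 2 (rank 318) and 95.1 in replicate 4 (rank 218). *RpL23A*, a single promoter and the gene of a protein at the exit of the peptide tunnel, had 26.1 in replicate 2 (rank 1181) and 101.4 in replicate 4 (rank 191). *RpL7*, divergent with *Ripalpha* at 30 bp, had 10.1 in replicate 2 (rank 9653) and 104 in replicate 4 (rank 181). The pooled values were 136 for *RpL34b*, 126 for *RpL23A* and 118 for *RpL7*, so the third of these strongest peaks is weak in replicate 2.

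*RpL28*, *RpLP0*, *RpL32*, *RpL41* and *RpL14* followed, with pooled signals between 85.0 and 96.3, all at divergent promoters. *RpLP0*, which encodes the base of the ribosomal stalk, had 21.5 in replicate 2 (rank 1710) and 72.8 in replicate 4 (rank 429). *RpL32*, a common reference gene for expression assays in flies, had 37.7 in replicate 2 (rank 556) and 54.3 in replicate 4 (rank 834). These 2 peaks, unlike the next 2, were in the top set of both libraries. *RpL41*, the gene of a very short basic protein, had 12.2 in replicate 2 (rank 5939) and 78.3 in replicate 4 (rank 356). *RpL28* had 76.4 in replicate 4 (rank 377) and no replicate 2 region at the summit, although another replicate 2 region (signal 24.2, rank 1382) has its summit in the promoter. *RpL14* had 24.5 in replicate 2 (rank 1346) and 60.6 in replicate 4 (rank 637). Partners not named above are *CG7130* at *RpLP0*, *CG7943* at *RpL32* and *NaCP60E*, a sodium channel gene, at *RpL41*.

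The other 12 large subunit peaks had pooled signals between 54.6 and 71.1. They stood at *RpL18*, *RpL24*, *RpL22*, *RpL35A*, *RpL23*, *RpL30*, *RpL11*, *RpL27A*, *RpL27*, *RpL34a*, *RpL4* and *RpL13*. *RpL18*, divergent with *Neos*, had 28.8 in replicate 2 (rank 971) and 36.8 in replicate 4 (rank 1772). *RpL35A* had 26.5 (rank 1143) in replicate 2 and 39.1 (rank 1573) in replicate 4. *RpL18* and *RpL35A*, like *RpL32* and *RpS25*, ranked higher in replicate 2, which no other member peak did. *RpL11*, which with RpL5 accompanies the 5S RNA into the ribosome, had 10.7 in replicate 2 (rank 8430) and 46.7 in replicate 4 (rank 1114). *RpL22* had 13.4 in replicate 2 (rank 4600) and 54.9 in replicate 4 (rank 810). *RpL4*, a protein that lines the peptide tunnel, is divergent with *BCAS2* and had 14.2 in replicate 2 (rank 4034) and 40.5 in replicate 4 (rank 1471). The other partners in this group are *Trmt61*, a tRNA methyltransferase subunit, at *RpL34a*, and *Dref* at *RpL13*.

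**Figure D2:**
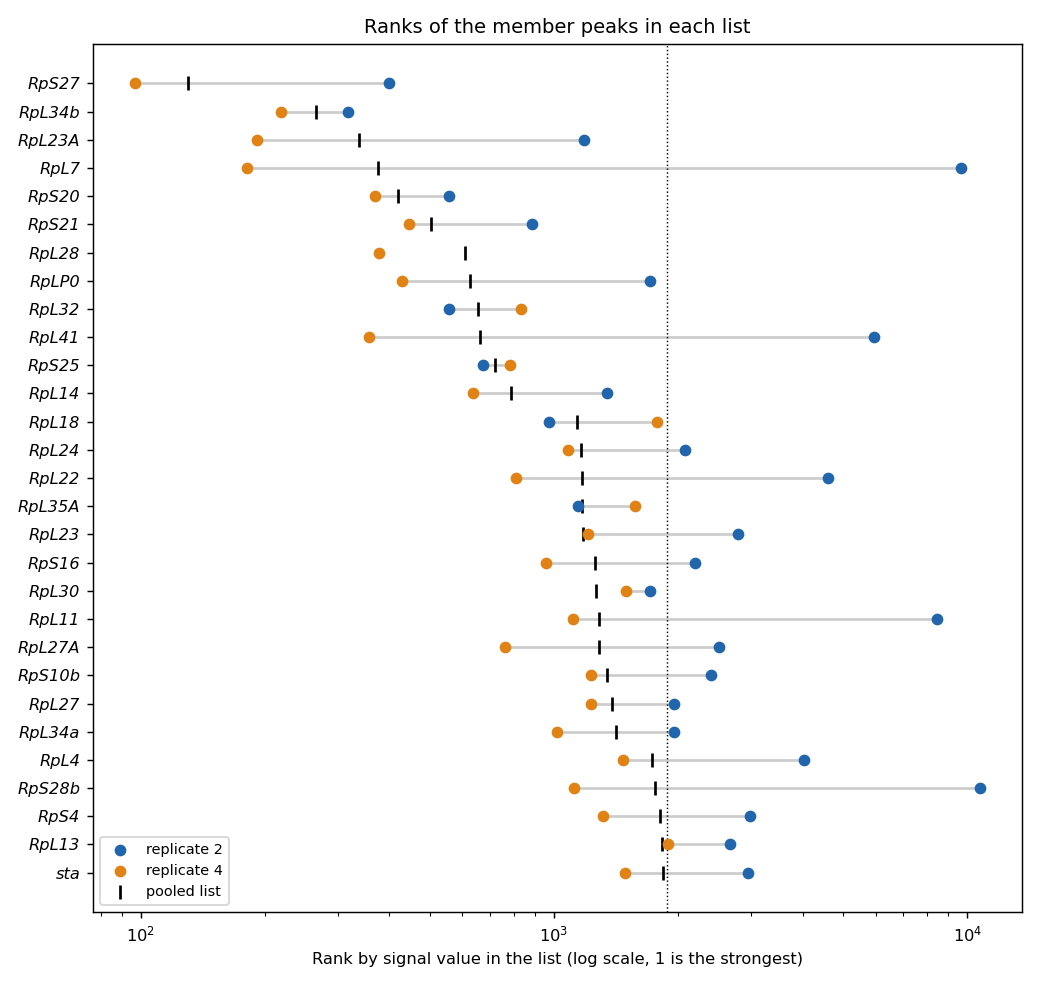
Each of 29 member peaks has its rank by signal in replicate 2 (blue), replicate 4 (orange) and the pooled list (black bar) on a log axis, ordered by pooled rank, and the dotted line marks the end of the top set. Points of replicate 4 are left of those of replicate 2, so stronger, except at *RpL32*, *RpS25*, *RpL18* and *RpL35A*, and *RpL28* has no replicate 2 point.

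The libraries thus weighted these promoters differently. Ranks can be set side by side because both replicate lists hold 30000 regions. Member peaks ranked higher in replicate 4 in 25 of 29 cases (86.2%), with a median rank of 1952 in replicate 2 and 959 in replicate 4. At the other promoter peaks the share was 52.1%, with median ranks of 860 in replicate 2 and 869 in replicate 4. The median ratio of replicate 2 rank to replicate 4 rank was 1.99 in member peaks, against 1.05 in other promoter peaks. At the pooled summits, 29 of the 30 members were in the top set of replicate 4 (the exception was *RpL13*, rank 1889) and 13 in that of replicate 2. Of the 5 member peaks that ranked beyond 5000 or had no region in replicate 2, all were in the top set of replicate 4. This follows from the choice of peaks by pooled signal, which a region weak in replicate 2 reaches through replicate 4.

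With the top set of each library used in place of the reproducible peaks, 19 members had such a region at the promoter in replicate 2, against 9.88% of all protein-coding genes. In replicate 4 the count was 32 members, against 9.91% of all protein-coding genes. Of these, 15 members were counted in both libraries, with 4 in replicate 2 alone and 17 in replicate 4 alone. Over all protein-coding genes, 1018 were counted in both, 360 in replicate 2 alone and 364 in replicate 4 alone. In the whole replicate lists, a region of any strength was at the promoter of 74 members in replicate 2, against 45.8% of all protein-coding genes, and of 75 members in replicate 4, against 46.6% of all protein-coding genes. A region was at the promoter in both lists for 66 members, and the same count over all protein-coding genes was not made. The replicate number cannot be told apart from the protocol document that each library cites.

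In the pooled data, summits at ribosomal protein genes lay closer to the start site than those at other promoters, and replicate 2 alone showed little of this. The median pooled position was 55.5 bp upstream of the member's nearest TSS (−226 to +81 bp, negative upstream), and 25 of 30 summits were upstream. At the summits of the matched replicate 2 regions the members' median was −105 bp. The 967 other promoter peaks, measured from the nearest TSS of any protein-coding gene with the peak in its window, had a median position of −127 bp. Within 100 bp of the TSS lay 21 of the 30 member summits (70%), against 33.2% of the other promoter summits. The 9 summits over 100 bp away were all upstream, and 7 of these 9 genes are divergent, beside 18 of all 30. They include *RpS20*, *RpL32*, *RpL41*, *RpL14*, *RpL18*, *RpL35A*, *RpL23* and *RpL34a*. Among the 18 divergent members the median was −74 bp, and among the 12 single ones −29 bp.

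Base content set the member peaks apart from most other promoter peaks. From 50 bp before to 50 bp after the summit, G and C made up a median of 49.5% in the 30 member peaks (24.8 to 58.4), against 30.7% in the 967 other promoter peaks. A content of 45% or more was found in 20 of the 30 member peaks (66.7%), against 7.45% of the other promoter peaks. The longest run of A and T had a median of 7 bp in member peaks and 11 bp in other promoter peaks. The difference was present at both ranges of position. For summits within 100 bp of a TSS the medians were 52.5% in 21 member peaks and 32.7% in 321 other promoter peaks, and for those farther away 34.6% in 9 member peaks and 29.7% in 646 others. The A/T-rich exceptions among members can be read in the *RpL18* and *RpL32* sequences above, and the G/C-rich majority in *RpL34b* and *RpL22*. In the 150 bp across the TSS (100 bp before to 50 bp after), G and C had a median of 46.3% in the members with a peak, 41.3% in those with a candidate only, 42% in those with neither and 41.3% in all protein-coding genes.

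**Figure D3:**
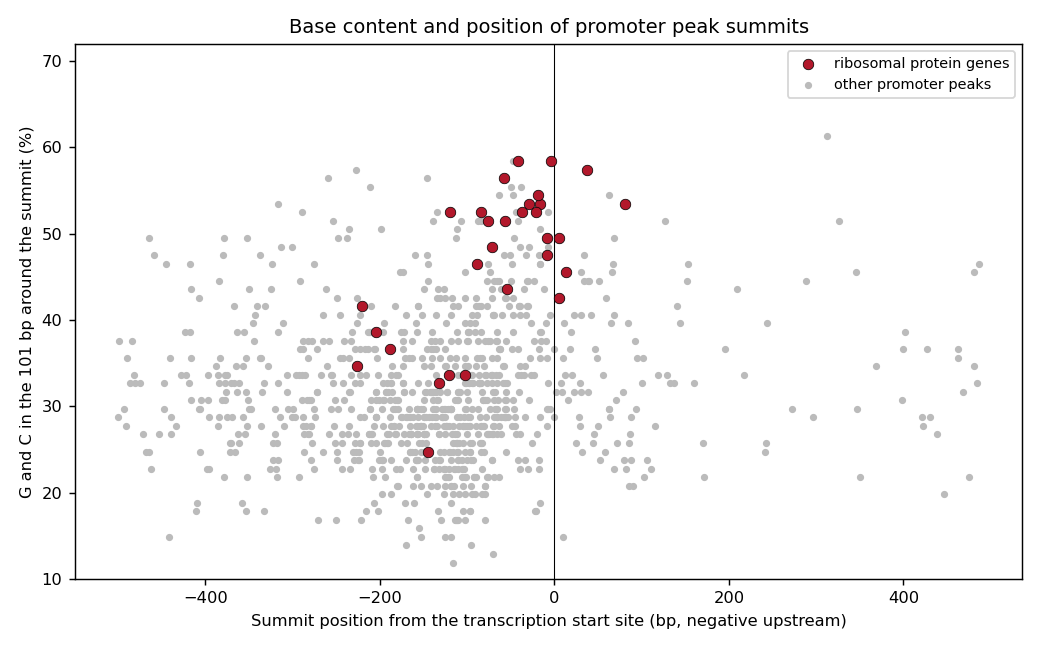
Each point is the summit of a reproducible promoter peak, at its position from the TSS in bp (negative upstream) and the percentage of G and C from 50 bp before to 50 bp after it, for 30 ribosomal protein genes (dark red) and 967 other promoter peaks (grey). Most member points sit within 100 bp of the TSS and at 45% or more, above the bulk of grey points, whose median is 30.7%, and those farther upstream lie lower except at *RpL41* (52.5%).

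The base content at the summit and the rank difference between libraries moved together, and the part of base content in the replicate difference was not tested. The classes below use base content at the pooled summit. Its place can follow the stronger library, so base content and rank difference are not independent here. Of member peaks with 45% G and C or more, 94.7% of those found in both libraries ranked higher in replicate 4, with a median rank ratio of 2.28. Of member peaks below 45%, 70% did, with a median ratio of 1.67. Among the other promoter peaks with 45% or more, 73.5% ranked higher in replicate 4, with a ratio of 1.53, and among those under 35% the share was 47.8%, with a ratio of 0.978. Each library's own strongest regions showed the same split. The 19 members of replicate 2 had a median of 37.6% G and C and a median position of −126 bp, against 30.7% and −130 bp in 968 other promoter regions of that library. The 32 members of replicate 4 had 47.5% and −49.5 bp, against 31.7% and −115 bp in 969 other promoter regions of that library. Within 100 bp of the TSS were 8 of the 19 in replicate 2 (42.1%), against 32.1% of others, and 26 of the 32 in replicate 4 (81.2%), against 36.5% of others. In replicate 2 alone the members' median position was thus within 4 bp of that of the other regions.

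The summit itself moved between libraries at several genes. Replicate summits were a median of 42 bp apart in member peaks, with 16 of 29 at most 50 bp apart (55.2%), against a median of 33 bp and 65.8% in other promoter peaks. *RpL11* had its summit at −189 bp in replicate 2, where G and C were 29.7%, and at −20 bp in replicate 4, where they were 48.5%. *RpL27A* had it at −155 bp in replicate 2 (19.8%) and at −8 bp in replicate 4 (47.5%). *RpS4* had it at −120 bp in replicate 2 (31.7%) and at −20 bp in replicate 4 (52.5%). At these 3 genes the replicate 2 summit was upstream in A/T-rich DNA and the replicate 4 summit near the start site. Other genes moved differently. *RpL41* had its summit at −87 bp in replicate 2 (53.5%) and at −154 bp in replicate 4 (43.6%), and *RpL34a* at −176 bp in replicate 2 (35.6%) and at −60 bp in replicate 4 (24.8%). *sta* and *RpS10b* had replicate 2 summits downstream of the TSS, at +126 and +60 bp, and replicate 4 summits upstream, at −32 and −20 bp. *RpLP0*, at −29 bp in both libraries, and *RpL35A*, at −105 bp in replicate 2 and −104 bp in replicate 4, kept their place. At the matched regions the median G and C content in member peaks was 40.6% at replicate 2 summits and 48.0% at replicate 4 summits, against 30.7% and 31.7% in other promoter peaks.

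**Figure D4:**
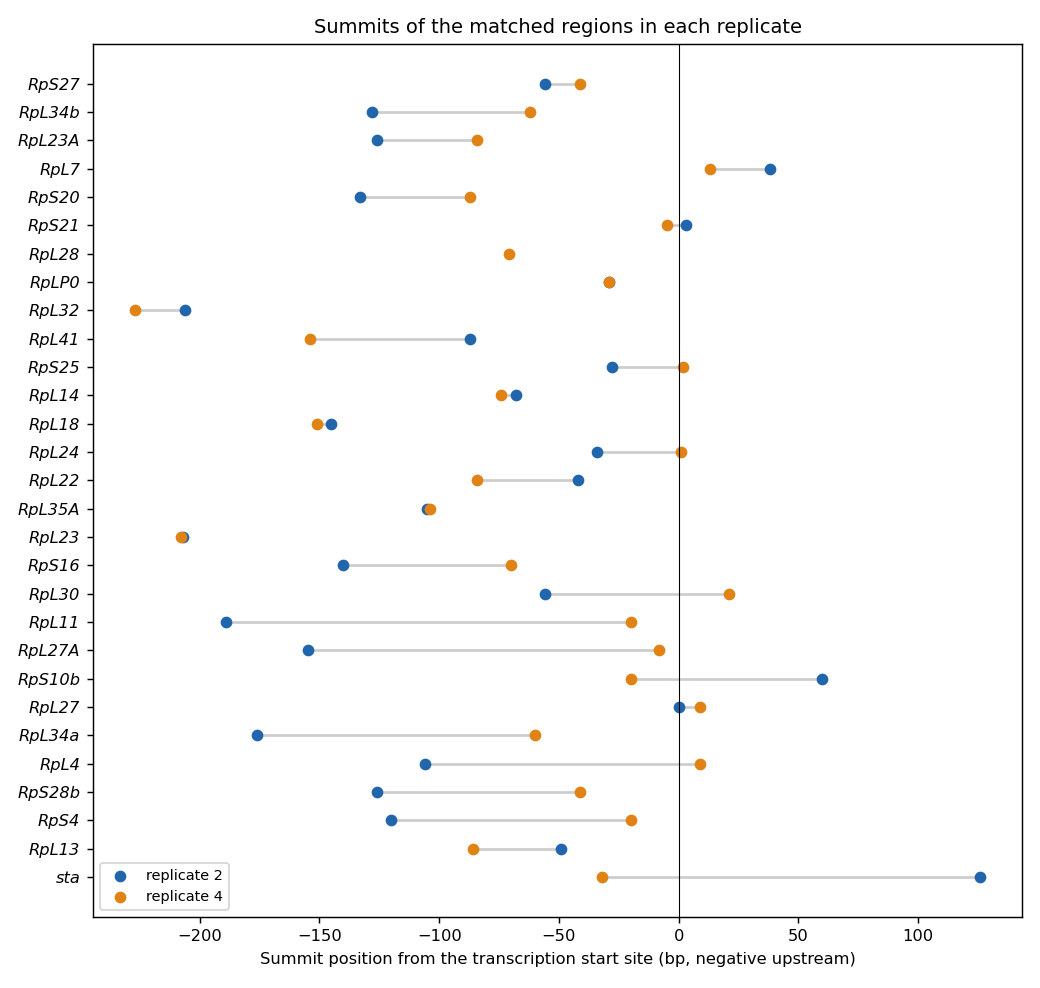
Summits of the regions matched to 29 member peaks are plotted by position from the TSS in bp (negative upstream) for replicate 2 (blue) and replicate 4 (orange), joined by a grey line and ordered by pooled rank. *RpL11*, *RpL27A* and *RpS4* show a replicate 2 summit over 100 bp upstream and a replicate 4 summit within 20 bp of the TSS, while *RpLP0* and *RpL35A* coincide.

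Promoter words at the summits also differed from those of other promoter peaks. Words were searched on both strands, from 50 bp before to 50 bp after each summit, and a match is a description and not a binding site. The DRE, TATCGATA, was in 6 of 30 member peaks (20%) and 7 of 48 members with a candidate only (14.6%), against 1.76% of other promoter peaks. Its core ATCGAT was in 30% of member peaks, against 5.79% of other promoter peaks. CGATA, the word recognised by the insulator protein BEAF-32, was in 53.3% of member peaks, against 14.9% of other promoter peaks, and it is contained in the DRE, so these words overlap. GGTCACACT, the core of motif 1, was in 6.67% of member peaks, against 0.517% of other promoter peaks, and the members' share rests on 2 of 30 peaks.

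Other words were rarer at member peaks or rested on few of them. The TATA box word TATAAA was in 1 of 30 member peaks (3.33%), against 27.1% of other promoter peaks, at which the G and C content given above was lower. With 100 bp on each side it was in 5 of 30 member peaks (16.7%), against 42.8% of other promoter peaks, and in 39.6% of members with a candidate only, against 27.6% of other promoter candidates. In the narrower window GAGAG, the word of the GAGA factor, was in 3.33% of member peaks, against 9.10% of other promoter peaks. The E-box CACGTG, the word of Myc and Max, was in 10%, against 1.45%, and the E-box CAGCTG was in 10%, against 3.41%. Each of these E-box shares rests on 3 member peaks. The 6 member peaks with a whole DRE include *RpL28*, *RpL41*, *RpS25*, *RpL27* and *RpL34a*, where the DRE was 17 to 42 bp from the summit.

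**Figure D5:**
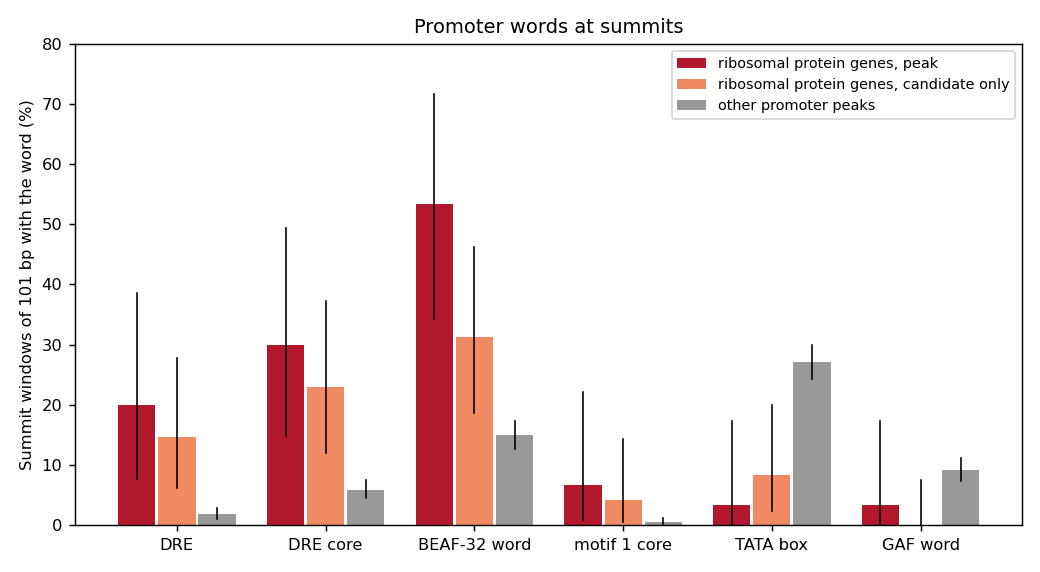
Bars give the percentage of summit windows (50 bp to each side) with each promoter word on either strand, for 30 ribosomal protein genes with a peak (dark red), 48 with a candidate only (orange) and 967 other promoter peaks (grey), with 95% exact binomial intervals as lines. The DRE, its core and the BEAF-32 word, which overlap one another, are more frequent at ribosomal protein genes, and the TATA box word is more frequent at the other peaks.

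The same words were found at members with and without a peak. In the 150 bp across the most upstream TSS, the DRE was in 26.7% of members with a peak, 33.3% of those with a candidate only and 20% of those with no candidate, against 7.63% of all protein-coding genes. The motif 1 core was there in 3 of 30 members with a peak, 3 of 48 with a candidate only and 2 of 15 with no candidate. Its share over all protein-coding genes was 5.19%. The TCT initiator, TCTTT or CCTTT on the sense strand with its second letter within 5 bp of a TSS, was in 20 of 30 members with a peak, 27 of 48 with a candidate only and 9 of 15 with no candidate. Over all 93 members that is 60.2%, against 3.31% of all protein-coding genes and 4.82% of all protein-coding genes with a peak. Of the 56 members with a TCT initiator 20 had a peak, and of the 37 without it 10 had one.

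Below the reproducible peaks, 48 members had a candidate only, with a median signal of 30.5, against 22.6 in 5816 other promoter candidates. These medians are not measured alike. Each member enters by its strongest candidate, while the 5816 also include weaker candidates of the same gene, which lowers their median. Just outside the limit, 14 of the 48 members stood among the next regions of the list, counting as many of these as there are reproducible peaks. The share of all protein-coding genes in that range was not counted, so the 14 cannot be set against it. *RpS29*, a zinc-binding small subunit protein, was the first of them, with a pooled signal of 50.5 (rank 2064), 25.2 in replicate 2 (rank 1273) and 28.0 in replicate 4 (rank 3048). *RpL17*, *RpS5a*, *RpL29* and *RpL8* followed, with pooled signals of 50.1, 47.7, 47.0 and 46.4. *RpS27A*, which encodes a small subunit protein fused to ubiquitin, had 46.2 in the pooled list, 9.89 in replicate 2 (rank 10312) and 39.2 in replicate 4 (rank 1571). *RpL31*, *RpL3* (a protein near the peptidyl transferase centre), *RpLP1* (a stalk protein), *RpS30* and *RpL26* were also among the 12 strongest, with pooled signals between 40.7 and 45.4.

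No candidate was found at *RpL10Aa*, *RpL22-like*, *RpL6*, *RpL7-like*, *RpLP2*, *RpS14b*, *RpS15*, *RpS18*, *RpS19b*, *RpS24*, *RpS28-like*, *RpS3*, *RpS5b*, *RpS6* and *RpS9*. They include *RpS6*, whose protein is phosphorylated by S6 kinase, and *RpS3*, a protein at the entry of the messenger channel. Of the 15, 10 had no region at the promoter in any of the 4 lists. In replicate 2, *RpL7-like* (rank 15441), *RpS24* (18335), *RpS19b* (22058), *RpS6* (27477) and *RpS9* (28905) had a region, and in replicate 4 *RpS24* alone (14302). All stretches of 36 bases within 150 bp of the most upstream TSS occur once in the genome for 91 of the 93 members, including these 15. Sequence farther out and at other start sites was not examined. The lists hold regions above a minimum only, so a missing region does not show that the protein was absent.

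Paralogs differed from each other in several pairs. *RpL34a* and *RpL34b* both had a peak, with pooled signals of 63.4 and 136. *RpS10b* had a peak, while *RpS10a* had a candidate with a signal of 22.9 that rested on replicate 2 (rank 2971), with no replicate 4 region at its summit. *RpS28b* had a peak, while *RpS28a* had a candidate of 30.9. Both *RpS15Aa* (30.1) and *RpS15Ab* (31.2) had a candidate only. In 4 further pairs one copy had a candidate and the other had none: *RpL10Ab* (21.2) beside *RpL10Aa*, *RpS5a* (47.7) beside *RpS5b*, *RpS14a* (33.3) beside *RpS14b*, and *RpS19a* (34.6) beside *RpS19b*. The start sites of all these paralogs are among the 91 in which every stretch of 36 bases is unique.

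Along the genome, member peaks were on every arm but chromosome 4. On 2L 6 of 19 members had one, against 10.8% of all protein-coding genes of the arm, and on 2R 5 of 21, against 8.45%. On 3L it was 6 of 14, against 11.8%, on 3R 9 of 23, against 11.2%, and on X 4 of 15, against 7.97%. The 1 member on chromosome 4, *RpS3A*, had a candidate only, and 3.75% of the genes there had a peak.

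Related gene lists were counted in the same way. Reproducible peaks stood at 11 of 73 mitochondrial ribosomal protein genes (15.1%, interval 7.77 to 25.4) beside 10.1% of all protein-coding genes. Of the 11, 10 are divergent, beside 857 of the 1411 protein-coding genes with a peak. The strongest peaks of the mitochondrial list, at *mRpS10* (570) and *mRpL41* (472), exceeded any cytosolic member. The list of ribosome biogenesis and nucleolar genes had a peak at 9 of 39 (23.1%, interval 11.1 to 39.3). These were *eIF6* (261), the factor that keeps free large subunits from joining, *Ns2* (194), *Rrp1*, *RIOK1*, *Csl4*, *Rrp6*, *peng*, *NHP2* and *Non3*. The list was matched by symbol. It took in *Rrp1*, a recombination repair gene in flies, so the count and share include a gene outside the group. RNA polymerase I genes had a peak at 0 of 10 (interval up to 30.9), and 5 of them had a candidate. Of 8 genes listed here as regulators of ribosomal protein transcription, *Irbp18* (124), *M1BP* (93.7) and *Dref* (54.6) had a peak, and *Dref* shares its peak with *RpL13*. The evidence for that role was not examined gene by gene, and it is uncertain for *Irbp18*.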

How the data were processed

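Members and gene lists were chosen with earlier results of these data known. The authors deposited narrowPeak lists on dm6: 30000 regions for each replicate, 28750 in the pooled list and 1872 reproducible peaks, per the deposited read-me files, each made with 1 control alignment. Signal values are the enrichment per region that the authors deposited, of unstated scale. The aligner, the peak caller and the threshold on IDR were not given in the sources used here. Depth is unknown, so no error per region can be given. The dm3 lists were not used, since no dm3 annotation was used here.

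Genes and start sites came from Ensembl release 115 on the same assembly, on 6 arms and without transposable elements, and sequence from RefSeq. Each member was given its strongest pooled candidate with a summit within 500 bp of a TSS, and the replicate region holding that summit. Ranks are by signal. Intervals are 95% Clopper-Pearson and cover counting error only. No tests were run, because both libraries form 1 group. Named genes are all members with a peak, the 12 strongest with a candidate only, those with no candidate, paralog pairs, partners, and listed genes with a peak; the few others were chosen after their values were seen. Values of 2 members that this rule names are not reported here, though they remain in the counts. Of 42 biogenesis symbols 39 matched, of 13 polymerase I symbols 10, and of 8 regulators all. Scripts used Python 3.11.15, numpy 2.4.6, scipy 1.17.1 and matplotlib 3.10.9. On simulated regions the promoter assignment followed the 500 bp rule for 200 of 200 genes, which checks the code and not the rule. Alternatives were window, overlap, nearest TSS, partner distance, the 936 strongest peaks, and each replicate alone. Base content in 201 bp and at replicate summits, and single genes with 1 TSS, were added after seeing the data.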

Additional observations from a re-analysis of the deposited data

How the results depend on the processing

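The count of 30 members with a peak was also 30 with promoter windows of 250 and 1000 bp, with overlap in place of the summit, and without the genes ending in "-like". The count over all 13945 protein-coding genes did move, from 1411 to 1096 at 250 bp, 1600 at 1000 bp and 1492 with overlap. When a peak counted for the gene of the nearest TSS alone, 23 members had one, against 979 of all protein-coding genes. Divergent members then numbered 11 in place of 18, and the lists fell to 5 mitochondrial ribosomal protein genes, 4 biogenesis genes and 1 regulator. The stronger 50% of peaks left 13 members (9 large subunit, 4 small subunit, 1 single) and 769 of all protein-coding genes. From the compared lists it left 7 mitochondrial ribosomal protein genes and 4 genes of the biogenesis list, *Rrp1* included. With a partner at most 250 bp away, 10 of 18 divergent and 20 of 75 single members had a peak. No such count over all protein-coding genes is given here. Without replicate 4, and without replicate 2, the members with a strong region numbered 19 to 32, large subunit genes 11 to 22, small subunit genes 8 to 10 and single members 7 to 14. At replicate 2 summits the median position was −105 bp and the median G and C content 40.6%, and with 100 bp on each side of the pooled summit it was 43.0%. The members' count was higher in replicate 4 than in replicate 2, and the cause was not tested. No paired analysis was possible because both libraries form 1 group.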
